A study of Homo sapiens with 6 samples.

Results

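Start-site windows of protein-coding genes that lie beside a small RNA gene were examined for small RNA reads before and after knockdown of La. A window is 400 bp long and runs from 150 bp before to 250 bp after an annotated start site. A protein-coding window was taken where it overlapped, or lay within 1000 bp of, any window of a small RNA class (tRNA, snoRNA, snRNA, 7SL, Y RNA, 5S and others), and windows of 2 regions on chromosomes 1 and 6, which would have added 2 windows, were left out. This gave 111 windows of 22988 protein-coding windows and 53603 windows in all. No protein-coding window overlapped a small RNA window, so every one was taken by distance, with a gap between window edges of 49 to 997 bp and a median of 403 bp. The 111 windows carried 86 gene symbols and had 82 different nearest small RNA windows. They were not independent, since 44 overlapped another of the 111 and 53 shared their nearest small RNA window with another.

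The cells were HEK293T, an established line derived from human embryonic kidney. The control arm received a control siRNA and the La knockdown arm an siRNA against La (encoded by SSB), each at 150 nM with Lipofectamine RNAi Max for 48 h, with 3 biological replicates per arm. Small RNA was treated with a phosphatase and then a kinase before library preparation, per the labels, so RNA with several kinds of ends could enter. The study addressed the effect of La on small RNA made at promoters.

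La binds the run of uridines at the end of newly made RNA polymerase III transcripts, such as tRNA precursors, and protects that end from exonucleases. Many human snoRNAs are instead cut from introns of protein-coding host genes, often genes for ribosomal proteins and translation factors. Copies of 7SL, the RNA of the signal recognition particle, are scattered through the genome, and most are not known to be active genes. A protein-coding start site beside a small RNA gene therefore has a second transcript close by, which may be made by another polymerase or from the same pre-mRNA.

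The sequences on which the results turned were those of 2 miRNA genes inside NSRP1 windows, of 4 box C/D snoRNAs beside well-read windows, and of a few start sites. MIR423 (GRCh38.p14 chr17:30117079-30117172, plus strand) and MIR3184 (chr17:30117086-30117160, minus strand) lie on opposite strands of 1 segment, and they are shown because this segment held nearly all reads of the 111 windows. The mature RNAs, from RefSeq with the seed (bases 2 to 8) in capitals, and the MIR423 hairpin are as follows.
miR-423-5p: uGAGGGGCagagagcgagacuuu
miR-3184-5p: uGAGGGGCcucagaccgagcuuuu
miR-423-3p: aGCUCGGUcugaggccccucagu
miR-3184-3p: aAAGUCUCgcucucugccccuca
MIR423 hairpin: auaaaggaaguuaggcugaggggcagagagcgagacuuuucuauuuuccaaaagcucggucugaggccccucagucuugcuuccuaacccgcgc
The 5p RNAs of both genes have the seed GAGGGGC, and the 3p RNAs have different seeds.

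Box C/D snoRNAs guide methylation of the ribose in ribosomal RNA and other RNAs. The 4 below are the nearest small RNA genes of the windows of EIF4A2, ATP5F1B, DDX39B and RACK1, and each lies wholly inside the span of its host gene. The box C core and the last box D motif are in capitals, and the sequences are those of GENCODE release 29 transcripts. Their genes lie on GRCh38 at chr3:186784796-186784864 (plus strand, SNORD2), chr12:56645027-56645101 (minus, SNORD59A), chr6:31541101-31541178 (minus, SNORD84) and chr5:181243312-181243379 (minus, SNORD95).
SNORD2: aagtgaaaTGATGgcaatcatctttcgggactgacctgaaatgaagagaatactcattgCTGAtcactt
SNORD59A: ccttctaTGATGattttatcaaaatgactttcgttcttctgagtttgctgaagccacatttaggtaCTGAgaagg
SNORD84: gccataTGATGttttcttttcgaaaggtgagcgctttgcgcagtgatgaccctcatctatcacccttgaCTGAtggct
SNORD95: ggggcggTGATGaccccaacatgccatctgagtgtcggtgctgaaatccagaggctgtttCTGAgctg

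RefSeq promoters (250 bases before to 50 after the gene's start) matched 45 of the 111 windows. The B box of tRNA genes, an internal promoter element for RNA polymerase III, was searched on both strands as GGTTCGA, any 2 bases and CC. It was in 0 of 45 of these promoters and in 39 of 22078 (0.177%) of all protein-coding promoters of the same length. A run of TTTT on either strand, the kind of sequence at which RNA polymerase III stops, was in 36 of 45 (80%) and in 66.7% of all promoters. A start at C followed by a run of pyrimidines of 5 or more bases in all, the form of a terminal oligopyrimidine start that is known from mRNAs of the translation machinery, was searched after the values had been seen. It was present in 5 of 45 promoters (11.1%) against 1001 of all promoters (4.53%), and these 5 were among the 9 matched promoters whose nearest window was a snoRNA. The 60 bases before and 20 after the start of these 5 genes are shown in the direction of transcription, with the pyrimidine run at the start in capitals. On GRCh38.p14 they are chr3:186783517-186783596 (plus, EIF4A2), chr1:75786196-75786275 (plus, RABGGTB), chr5:181243887-181243966 (minus, RACK1), chr9:133348158-133348237 (plus, RPL7A) and chr16:2155722-2155801 (plus, TRAF7).
EIF4A2: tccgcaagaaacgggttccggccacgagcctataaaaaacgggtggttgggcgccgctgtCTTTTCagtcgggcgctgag
RABGGTB: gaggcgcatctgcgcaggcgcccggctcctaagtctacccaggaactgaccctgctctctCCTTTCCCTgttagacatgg
RACK1: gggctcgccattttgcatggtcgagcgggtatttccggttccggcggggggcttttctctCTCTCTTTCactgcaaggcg
RPL7A: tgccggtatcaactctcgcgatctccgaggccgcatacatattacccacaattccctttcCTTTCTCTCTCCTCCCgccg
TRAF7: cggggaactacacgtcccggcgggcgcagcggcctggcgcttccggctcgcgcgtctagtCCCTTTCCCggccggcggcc
The reads at these start sites differed widely, from 0 in all 6 libraries at TRAF7 to 135 at RACK1. RPL7A had 6 reads and RABGGTB had 4. A match is a description of letters and not of a site in use.

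Library totals over all windows ranged from 3066299 to 4105806 counts. The biological coefficient of variation between replicates, given by the common dispersion of the 1064 windows with enough reads to be tested, was 28.5%. It leaves out counting error, so counts at windows with few reads varied more. SSB itself was targeted, and its own windows hold small RNA at the start of the gene and not its mRNA. SSB window PCG_40419 had 4, 3 and 3 counts in controls and 1, 0 and 0 after La knockdown, and PCG_12982 had 0, 0 and 1 against 0, 2 and 0. These counts do not measure how far La was reduced.

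Nearest small RNA classes were 7SL copies (SRP_RNA) for 42 windows, snoRNAs for 30, tRNAs for 20, Y RNAs for 6, U6 for 5, 5S rRNA and U2 for 2 each, and U1, U4, 7SK and rRNA for 1 each. Among the 96 windows named by an annotated start, the small RNA window lay upstream in 59 and downstream in 37. It lay wholly inside the same gene in 54 of these 96, which included 26 windows beside a 7SL copy, 17 beside a snoRNA and 3 beside a tRNA. These 54 windows had 37 different nearest small RNA windows. No window belonged to a gene for an RNA polymerase III subunit or factor or to a gene of the La family.

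Most of the 111 windows had few reads. At least 1 read over all 6 libraries was present in 83 (74.8%), against 13180 of 22800 other protein-coding windows (57.8%). The median was 3 reads, against 1 in the other windows. At least 10 reads were present in 22 windows (19.8% against 6.30%), and at least 60 reads in 6 windows (5.41% against 0.377%). The windows beside small RNA genes thus held more reads at every depth compared, without a test, since overlapping windows are not replicates. A read was present in 41, 40 and 41 of the 111 windows in controls and in 41, 51 and 41 after La knockdown, so the arms overlapped.

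**Figure D1:**
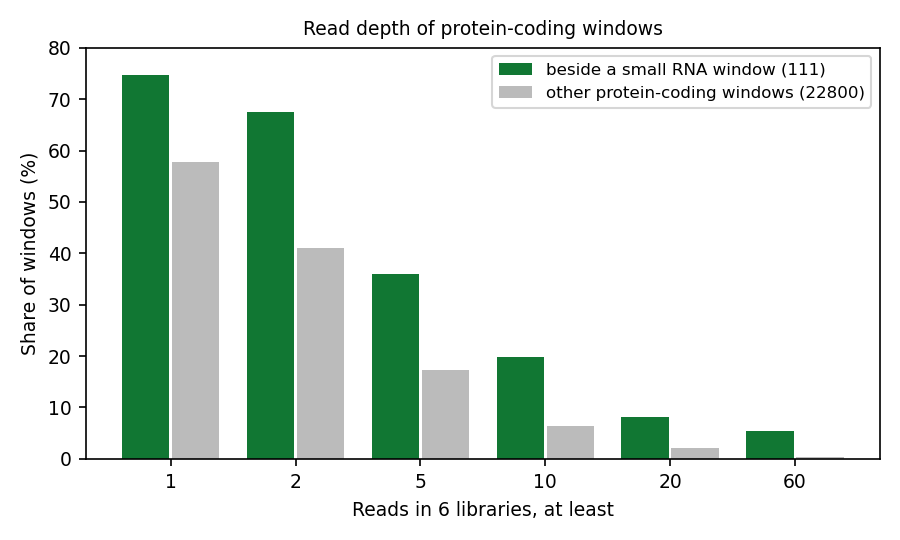
Share of windows (%) with at least the given number of reads over 6 libraries, for the 111 protein-coding windows beside a small RNA window (green) and the 22800 other protein-coding windows (grey). The share was higher beside small RNA windows at each depth, from 74.8% against 57.8% at 1 read to 5.41% against 0.377% at 60 reads.

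All 111 windows together held 0.117% ± 0.00217 of a control library and 0.227% ± 0.0276 of a La knockdown library (SD, n = 3 each). Of these reads, 96.6% lay in the 3 NSRP1 windows, and the well-read pair each count the same reads. With only the best-read window of each group of overlapping windows, the shares were 0.0610% ± 0.00109 and 0.116% ± 0.0138. The 108 windows outside NSRP1 had 194, 167 and 198 reads in controls and 196, 254 and 158 after La knockdown. Those were 0.00518% ± 0.000481 and 0.00628% ± 0.00123 of a library, and the ranges of the arms overlapped. The nearest small RNA windows themselves held 8.78% ± 1.52 of a control library and 6.45% ± 2.49 of a La knockdown library, also with overlapping ranges.

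Small RNA windows of the snoRNA and tRNA classes held far more reads than the protein-coding windows beside them, and 7SL windows did not. The 21 snoRNA windows beside 30 protein-coding windows held 857876 reads in controls and 553480 after La knockdown. The 30 protein-coding windows held 388 and 428. The 18 tRNA windows held 101498 and 60437 reads, while the 20 protein-coding windows beside them held 32 and 32, with a maximum of 9 reads in any window over all libraries. At the other end, the 29 copies of 7SL held 33 and 35 reads in all. The 42 protein-coding windows beside them held 12256 and 21413, nearly all in the NSRP1 pair, whose windows count the same reads. In all, 76 protein-coding windows had fewer reads than their small RNA window, 25 had more and 10 had the same number.

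**Figure D2:**
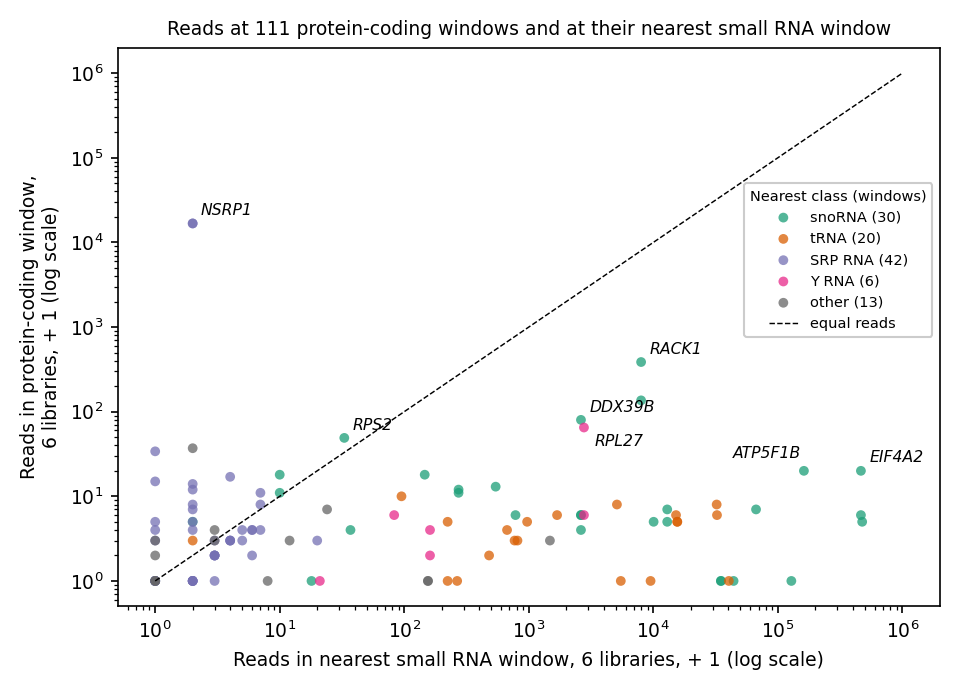
Reads over 6 libraries in each of 111 protein-coding windows (vertical, log scale, plus 1) against reads in its nearest small RNA window (horizontal, log scale, plus 1), coloured by the class of the small RNA window, with a dashed line of equal reads. The 2 NSRP1 windows lie far above a 7SL window with 1 read, and most windows beside well-read snoRNA and tRNA windows lie far below the line.

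The share of protein-coding windows with a read is described here by the reads of the small RNA window and by distance, without a test. Where the small RNA window had at least 1000 reads over 6 libraries, 24 of 31 protein-coding windows had a read, with a median of 5. With NSRP1 left out, the figures were 56 of 77 and a median of 2 where it had fewer than 1000, and 15 of 28 and a median of 1.5 where it had 0 or 1. By distance, 39 of 55 windows (70.9%) had a read at gaps of 0 to 400 bp, 26 of 34 (76.5%) at 401 to 700 bp and 18 of 22 (81.8%) at 701 to 1000 bp, with medians of 2, 4 and 3.5 reads. The shares with a read were thus 77.4% beside well-read small RNA windows, 72.7% beside those under 1000 reads and 53.6% beside those with 0 or 1. The last group is part of the one before it, and the groups by distance keep NSRP1. Of the 16 windows of genes that hold the snoRNA on their own strand, 15 had a read, with a median of 8. Part of this group shares genes, since DDX39B, EIF4A1, EIF4A2 and RACK1 each gave more than 1 window.

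A total of 28 windows had 0 reads in all 6 libraries, which allows up to 3 reads of 20487812, or 0.146 CPM (counts scaled to a common library size). Such limits cover counting error only. In 7 of these 28 windows the nearest small RNA window had at least 1000 reads. The window of ZBTB37, a gene for a zinc finger protein, lay 106 bp from a snoRNA window with 128338 reads. The window of CTNNA3, an alpha-catenin gene, lay 565 bp from the serine tRNA gene TRS-TGA1-1 with 40397 reads. TRAF7, 398 bp from SNORD60 with 44101 reads, and both windows of ZNFX1, 218 and 587 bp from SNORD12C with 34909 reads, were empty as well. The remaining empty windows of this kind were those of RNASE4, 167 bp from TRP-TGG3-2 with 9503 reads, and MYNN, 775 bp from TRV-AAC1-1 with 5480 reads. A well-read small RNA window close by thus did not always come with reads in the protein-coding window. EEF1A1, whose window was the closest to a small RNA window at 49 bp, also had 0 reads, and its 7SL copy had 1.

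Only 6 of the 111 windows had enough reads to be tested, out of 1064 windows tested. These were 2 windows of NSRP1, 2 of RACK1, 1 of DDX39B and 1 of RPL27, and they are also the 6 windows with at least 60 reads. In the edgeR quasi-likelihood test with Benjamini-Hochberg adjusted p under 0.05, 2 of the 6 were higher after La knockdown, where 0.658% of all windows tested were called higher, and 0 were lower, where 4.79% were called lower. At an unadjusted p under 0.05 the counts were also 2 higher, where 9.68% of all windows tested were, and 0 lower, where 14.2% were. Without a filter, 83 of the 111 entered the edgeR test, and at an unadjusted p under 0.05 there were 2 higher, where 0.944% of all windows were, and 2 lower, where 2.01% were. Upper quartile scaling, which moved the median log2 fold change of all windows tested from -0.05 to 0.26 and called 58 windows higher and 36 lower where the reported fit called 7 and 51, also gave 2 higher and 0 lower among the 6. Both calls were NSRP1 windows that share their reads, so they are 1 event, and among protein-coding windows tested 3.28% were called higher. The fitted log2 fold changes of the 6 were all above 0, from 0.22 to 1.05, except that RACK1 PCG_45951 was at -0.04 without a filter on low counts. Their median was 0.65, and 0.51 without NSRP1, against -0.05 over all windows tested and 0.34 over the 122 protein-coding windows tested.

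**Figure D3:**
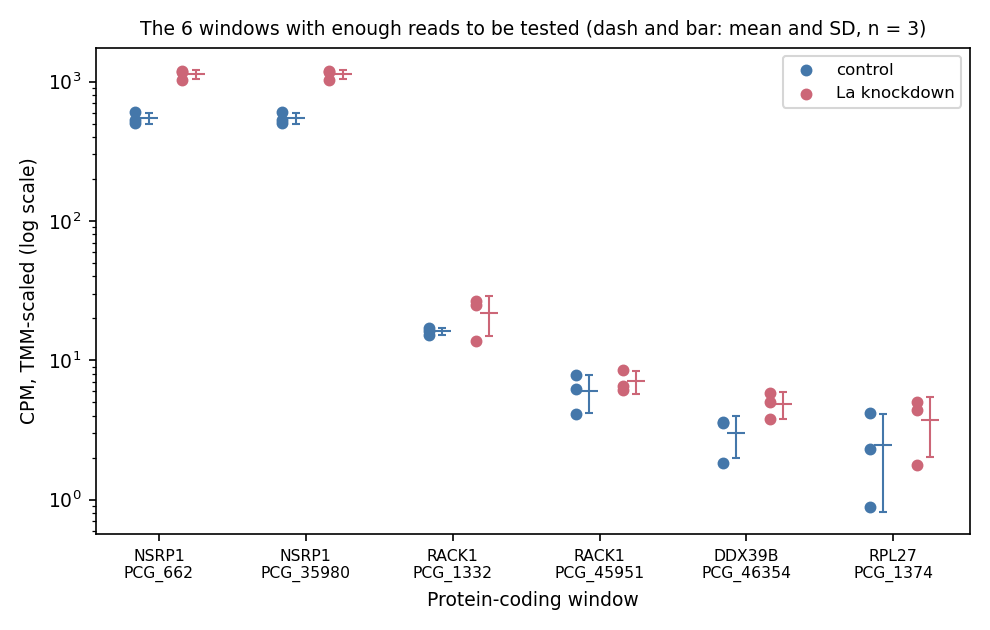
CPM, scaled by TMM factors, in each library (points, log scale) for the 6 tested windows, with control libraries beside La knockdown libraries and a dash and bar for mean and SD (n = 3). The arms were separate in both NSRP1 windows and in DDX39B and overlapped in both RACK1 windows and in RPL27.

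NSRP1 encodes a splicing regulator of nuclear speckles. Its window PCG_662 (chr17:30116842-30117241, plus strand) had 2330, 1789 and 1971 counts in controls and 2897, 3969 and 3799 after La knockdown. Every La knockdown library was above every control library. The mean was 547 ± 51.5 CPM in controls and 1130 ± 84.1 CPM after La knockdown (SD, n = 3 each), a log2 change of 1.05 (SE 0.22, edgeR quasi-likelihood adjusted p = 0.0223). Window PCG_35980 (chr17:30117022-30117421) had 2328, 1789 and 1969 against 2897, 3970 and 3799 counts, so the reads of the pair differed by 3 in all. The call was lost without single libraries while the size of the change stayed close, at 1.01 on the log2 scale without control replicate 2 (edgeR adjusted p = 0.115), 1.00 without control replicate 3 (edgeR adjusted p = 0.0735) and 1.08 without La knockdown replicate 1 (edgeR adjusted p = 0.121). Without La knockdown replicate 1 the edgeR fit called 0 of 1121 windows, where an unadjusted p under 0.05 was reached by 103 windows below and 72 above 0 in fitted change. It was also lost without a filter on low counts, with a log2 change of 0.79 and an edgeR adjusted p of 0.492, and the authors' deposited table gives PCG_662 0.78 on the log2 scale and an adjusted p of 1.

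The small RNA window that placed NSRP1 among the 111 had almost no reads. It is a 7SL copy, SRP_RNA_51780, 576 bp upstream of PCG_662, with 1 read in all 6 libraries. The third NSRP1 window, PCG_661 (chr17:30116669-30117068), overlaps PCG_662 but had 2, 0 and 3 counts in controls and 0, 0 and 2 after La knockdown. It ends 11 bases before the MIR423 hairpin shown above, and both windows with reads hold the whole hairpin. The near-equal counts of the pair in each library and the few reads of PCG_661 place nearly all of these reads in the 173 bp from 30117069 to 30117241. The hairpin begins 87 bases after the start site of PCG_662. Because the strand of the counts is not given in the sources used here, reads of MIR423, of MIR3184 and of NSRP1 itself in this segment cannot be told apart. In bulk RNA, more cells with an RNA and more of it per cell cannot be told apart either.

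**Figure D4:**
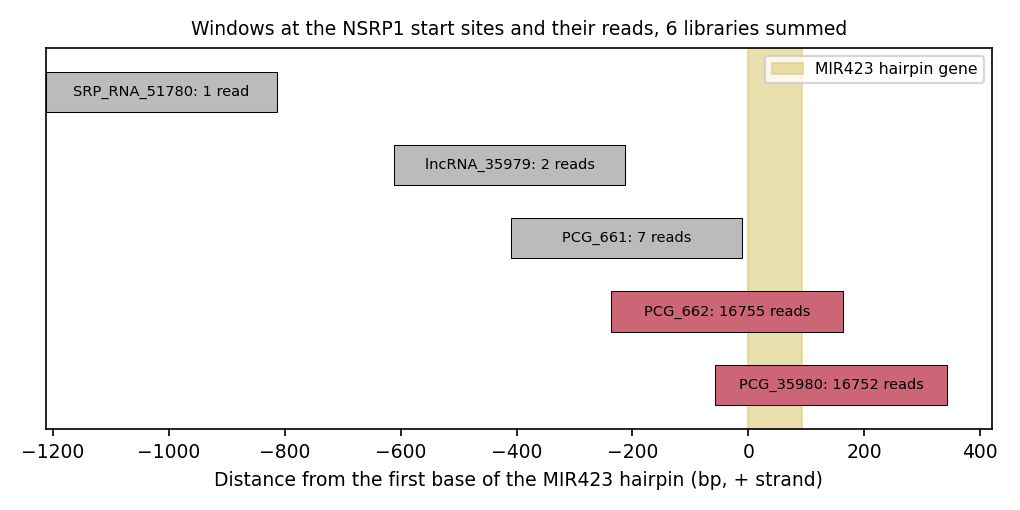
Windows at the NSRP1 start sites drawn by distance from the first base of the MIR423 hairpin (bp, plus strand), each labelled with its reads over 6 libraries, with the hairpin shaded. The 2 windows that hold the hairpin had 16755 and 16752 reads, and PCG_661, which ends before it, had 7.

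RACK1 encodes a scaffold protein of the small ribosomal subunit and hosts SNORD95. Its window PCG_1332 (chr5:181241977-181242376, minus strand), at a start site inside the gene, had 62, 52 and 66 counts in controls and 70, 91 and 44 after La knockdown. La knockdown replicate 3 was below every control library, and the other two were above them. The means were 16.2 ± 0.863 and 21.8 ± 7.0 CPM, or 0.43 on the log2 scale (SE 0.32, edgeR adjusted p = 0.390). Window PCG_45951 (chr5:181243653-181244052), at the upstream start and named here as the remaining tested window, had 30, 14 and 24 against 17, 29 and 21 counts, or 0.22 on the log2 scale (SE 0.36, edgeR adjusted p = 0.683). The SNORD95 window between them had 1590, 1141 and 1150 against 1401, 1385 and 1310 counts. All 3 windows had overlapping counts between the arms. For each 1000 SNORD95 reads, PCG_1332 had 47.3 ± 9.32 reads in controls and 49.8 ± 16.1 after La knockdown (two-sided exact permutation p = 0.9), and PCG_45951 had 17.3 ± 4.50 and 16.4 ± 4.41 (exact permutation p = 0.8).

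DDX39B encodes an RNA helicase of splicing and mRNA export and hosts SNORD84. Its window PCG_46354 (chr6:31540287-31540686, minus strand) had 7, 12 and 14 counts in controls and 14, 20 and 12 after La knockdown. Raw counts of the arms overlapped, but scaled values did not, with means of 2.99 ± 1.01 and 4.88 ± 1.06 CPM and a log2 change of 0.71 (SE 0.40, edgeR adjusted p = 0.278). The SNORD84 window, 242 bp away, had 989, 450 and 364 counts against 232, 178 and 410, a log2 change of -0.88 (SE 0.42, edgeR adjusted p = 0.224). The ratio of window to snoRNA was 24.1 ± 15.9 reads per 1000 in controls and 67.3 ± 42.0 after La knockdown (exact permutation p = 0.2), and neither of these differences passed its test. Another 3 DDX39B windows had 3 to 5 reads each.

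RPL27 encodes a protein of the large ribosomal subunit, and its well-read window PCG_1374 (chr17:42998599-42998998) lies 441 bp from a Y RNA copy, Y_RNA_52891. It had 16, 3 and 9 counts in controls and 5, 17 and 14 after La knockdown. The spread within each arm was wider than the gap between them, with means of 2.45 ± 1.64 and 3.72 ± 1.70 CPM and a log2 change of 0.59 (SE 0.56, edgeR adjusted p = 0.474). The Y RNA window had 597, 486 and 531 against 394, 252 and 512 counts.

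**Figure D5:**
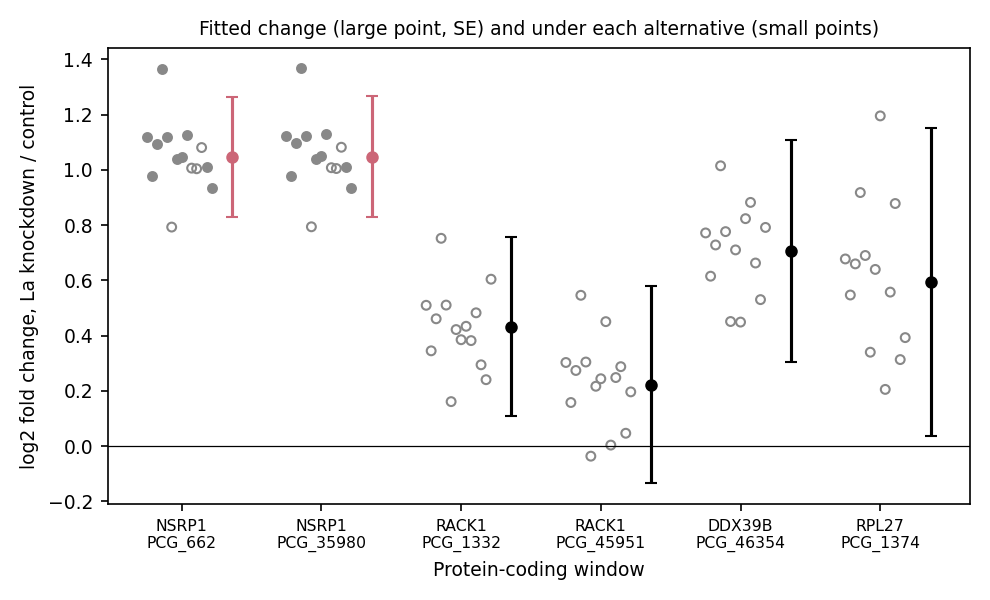
Log2 fold change (La knockdown over control) of the 6 tested windows as fitted (large point, with SE) and under each alternative setting (small points). All fitted values lay above 0, and of the alternatives only the fit without a filter placed a window below 0, RACK1 PCG_45951 at -0.04.

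Other well-read windows had too few counts to be tested and are described by their counts. RPS2, which encodes a protein of the small ribosomal subunit, had 4, 11 and 6 counts in controls and 14, 7 and 6 after La knockdown in PCG_34309 (chr16:1964382-1964781). Its SNORA78 window, 252 bp away, had fewer reads, with 10, 2 and 2 against 4, 7 and 7. RPL17, which encodes a protein of the large subunit, was not among the well-read windows and falls outside the naming rule. Its window had 4 reads although its SNORD58A window had 475364.

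EIF4A2, a helicase of translation initiation, hosts SNORD2, whose window had 117062, 91392 and 76121 counts in controls and 47402, 44886 and 87661 after La knockdown. EIF4A2 window PCG_1044 (chr3:186783427-186783826), 819 bp from it, had 4, 3 and 3 against 3, 4 and 2 counts. Counts of 2 to 4 are too low to show a change of the size seen between SNORD2 libraries, and the ratio was 0.0355 ± 0.00348 and 0.0584 ± 0.0334 reads per 1000 SNORD2 reads (exact permutation p = 0.4). EIF4A2 window PCG_43841, closer to SNORD2 at 193 bp, had 5 reads in all. ATP5F1B, the beta subunit of mitochondrial ATP synthase, hosts SNORD59A, whose window had 33226, 27397 and 29296 against 26062, 17609 and 28311 counts. ATP5F1B window PCG_2011 (chr12:56645718-56646117) had 2, 8 and 2 against 2, 5 and 0 counts.

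Mitochondrial and other genes filled the rest of the list. TOMM20, a receptor for protein import into mitochondria, had 3, 2 and 5 counts in controls and 2, 4 and 1 after La knockdown. GLRX5, a mitochondrial glutaredoxin, had 6, 0 and 2 against 2, 3 and 4 in PCG_33202. AL021546.1, whose window PCG_32053 overlaps the cytochrome c oxidase subunit gene COX6A1, had 11, 3 and 6 against 5, 5 and 6. All 3 had overlapping arms. NUP153, a protein of the nuclear pore, had 3, 4 and 8 against 9, 7 and 2 beside a 7SL copy with 0 reads, and GTPBP2 had 3, 2 and 1 against 1, 5 and 4 beside a 7SL copy with 3 reads.

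The 20 windows beside tRNA genes had few reads for the size of their small RNA windows, and the genes below were chosen after their values were seen. SMARCC2, a subunit of SWI/SNF chromatin remodellers, had the most, with 1, 4 and 1 counts in controls and 0, 2 and 1 after La knockdown, 518 bp from the serine tRNA gene TRS-CGA4-1. SLC27A4, a fatty acid transporter 112 bp from the arginine tRNA gene TRR-TCT3-1 with 15215 reads, had 3, 2 and 0 against 0, 0 and 0. NCOA7, a nuclear receptor coactivator 542 bp from TRE-CTC1-7 with 32450 reads, had 1, 4 and 0 against 0, 0 and 0. PSMB3, a proteasome subunit 600 bp from TRN-GTT2-5 with 1686 reads, had counts on the other side only, with 0, 0 and 0 against 1, 4 and 0. Reads in 1 arm alone thus occurred in both directions, and the ranges of the arms overlapped or met at 0 in all 4 windows.

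Of the 42 windows beside 7SL copies, 31 had a read, with a median of 2 reads. Some had reads where the 7SL copy had nearly none, and the examples below fall outside the naming rule. LPP, a protein of cell adhesion sites, had 1, 2 and 3 counts against 1, 3 and 4 beside a copy with 0 reads. RSL1D1, a nucleolar protein, had 1, 4 and 2 against 5, 1 and 0 and COPS6, a subunit of the COP9 signalosome, had 0, 4 and 0 against 3, 1 and 3, each beside a copy with 1 read. The arms overlapped in all 3 windows.

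The ratio of window to small RNA was tested for 7 pairs, taken only from windows that were tested or that met the naming rule. In these the small RNA window had at least 100 reads in all and a read in every library. Other windows with such a small RNA window beside them were not tested in this way. The lowest two-sided exact permutation p was 0.2, for DDX39B, where 3 against 3 libraries cannot go below 0.1, and every Benjamini-Hochberg adjusted value was 0.9. For RPL27 the ratio was 16.6 ± 10.3 and 35.8 ± 28.4 reads per 1000, and for TOMM20 with SNORA14B it was 143 ± 41.2 and 119 ± 93.4.

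Of the 83 windows with a read, 2 (2.41%) had all La knockdown values below all control values in CPM, where 0.975% of protein-coding windows with a read did, and 7 (8.43%) had them above, where 3.64% did. The windows of this paragraph were chosen after their values were seen. The lower pair belonged to POLR2D, a subunit of RNA polymerase II, and overlapped each other. PCG_40215 had 4, 1 and 5 counts in controls and 0, 0 and 0 after La knockdown. That was 2.82-fold lower against a floor of 3 counts over the arm, with the control counts taken as exact. PCG_40216 had 1, 1 and 5 against 0, 0 and 0. The authors' deposited table gives PCG_40215 a log2 change of -4.63, an unadjusted p of 0.00454 and an adjusted p of 1. The higher windows were the NSRP1 pair, DDX39B PCG_46354, and 4 windows with at most 3 counts in any library. They were 2 overlapping windows of ELP5, a subunit of the Elongator complex that modifies tRNAs (0, 0 and 0 against 1, 1 and 2 in PCG_35653), 1 of PRRC2A (0, 0 and 1 against 2, 1 and 1) and 1 of C7orf55-LUC7L2 (1, 0 and 1 against 1, 3 and 1). Another ELP5 window, PCG_23540, overlaps both and had 0, 0 and 0 against 0, 2 and 0 counts. In the PRRC2A and C7orf55-LUC7L2 windows the raw counts of the arms met at 1, and only the scaled values were separate. Overlapping windows can count the same reads, so the shares above are not shares of separate events. None (0) of the 111 windows in the authors' deposited table had an adjusted p under 0.05, where 0.149% of all windows were lower and 0.00373% were higher. At an unadjusted p under 0.05 the authors' deposited table had 6 of the 111 lower, where 1.11% of all windows were, and 5 higher, where 0.685% were. These included both overlapping POLR2D windows and the NSRP1 pair, and each of the remaining windows had 4 or 5 reads in all.

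The small RNA windows beside the 111 had a lower median fitted change than all windows tested. Of the 82, 37 were tested, with 1 called lower and 0 higher (edgeR quasi-likelihood test, adjusted p under 0.05; background 4.79% lower and 0.658% higher). Their median log2 fold change was -0.33, against -0.05 over all windows tested. It was -0.42 for 15 snoRNA windows, with a range of -1.03 to 0.34, and -0.35 for 17 tRNA windows, with a range of -2.40 to 0.56. Other snoRNA and tRNA windows were not compared, so whether the lower median is particular to these 37 is not shown. The call was tRNA_51308, with 172, 125 and 116 counts in controls and 13, 17 and 36 after La knockdown (log2 fold change -2.40, SE 0.39, edgeR adjusted p = 0.0129). The PPP6R3 window 230 bp from it had 0, 1 and 0 against 0, 0 and 0 counts, so a change there was not detectable at this depth. Whether small RNA windows and the protein-coding windows beside them changed differently was tested only as the 7 ratios above, and none of these passed.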

How the data were processed

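The authors deposited raw read counts of 53603 windows in 6 libraries, per the file headers, and a table of their own comparison. Per the file headers, that table holds log2 fold changes, mean abundance in log2 CPM, an F score, and p-values before and after adjustment. Trim Galore, Bowtie2, bedtools and edgeR with GRCh38 (hg38) are named in the submitters' processing notes. The use of strand and of reads with several positions is not given in the sources used here, so reads of gene copies, or of genes on opposite strands of 1 window, cannot be told apart. All columns of counts belonged to a library of the study. The labels describe the libraries as biological replicates, and no batch is named.

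Printed positions count from 1, so window starts were raised by 1. Names were those of a GENCODE release 29 protein-coding transcript with a start no more than 50 bp from that of the window (96 of 111), and otherwise those of an overlapping RefSeq GRCh38.p14 coding gene (15 of 111).

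edgeR 4.0.16 (R 4.3.3) was run over all windows that passed filterByExpr (1064), with TMM scaling, a quasi-likelihood fit with the arm as its single term, and Benjamini-Hochberg adjustment at 0.05. The fit was tested on simulated data. CPM values are TMM-scaled. SE values were derived from the edgeR fit, as the size of the log2 fold change over the square root of its F score. Exact permutation tests (two-sided) were used for single ratios. Sets of windows were given no test, and the list of ribosomal protein genes is not reported here as a whole.

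Windows were named where called, among the 12 with the most counts (1 per gene symbol), or among up to 5 with the largest rise or fall at a mean of at least 20 counts. The windows, lists and naming rule were chosen with earlier results of these data known. DESeq2 1.42.0, other scalings and filters, a replicate block and leaving out each library were alternatives. Figures were drawn with matplotlib 3.10.9. The sequence of the windows themselves was not used here, so the planned motif search was made on RefSeq promoters.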

Additional observations from a re-analysis of the deposited data

How the results depend on the processing

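Of the 82 alternatives for the 6 tested windows, 73 left direction and call as reported, 8 lost the NSRP1 calls and 1 changed sign (RACK1 PCG_45951, -0.036 without a filter on low counts). The count of windows called higher was 2 as reported, 2 with DESeq2, and 0 without a filter (edgeR, with 2 higher and 2 lower at an unadjusted p under 0.05 among 83 tested, against 0.944% and 2.01% of all windows), 0 for windows within 200 bp of a small RNA window and, chosen after seeing the data, 0 without the NSRP1 windows. Leaving out 1 library gave 0 to 2, with 0 where the library left out was control 2, control 3 or La knockdown 1. The cause was not tested. The count called lower was 0 in every setting run. The median log2 fold change of tested windows moved to 0.16 without a filter, which brings in windows of few reads, and to 0.22 within 200 bp, where 1 window is tested, and it ranged from 0.45 to 0.78 without single libraries. The difference in share of counts between the arms was 0.110 percentage points, 0.0553 with only the best-read of overlapping windows kept (88) and 0.00111 without NSRP1, and 0.10 to 0.126 without single libraries. With a replicate block 2 windows were higher and 0 lower, with a median of 0.68, and the NSRP1 log2 change was 1.05 with an edgeR adjusted p of 0.0111. Whether the replicate numbers pair the libraries is not known. Deviations of same-numbered libraries correlated with r of 0.15, 0.24 and -0.47, and so few values cannot decide it. Membership by overlap alone could not be run, since 0 windows overlapped a small RNA window. Depth limits most values, since 28 windows had no read and 6 could be tested.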
